A study of Rattus norvegicus with 16 samples.

Results

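Of the genes in these rat disc cell libraries, 8 encode complement components or regulators that were followed here by name: C1s, C1r, C3, Cfd, Serping1, C1qa, C1qb and C1qc. They were chosen by symbol, with no threshold on a measured value, but with earlier results of these data known, as was the wider list below. Counts of listed genes called, set beside the share of all genes, are thus descriptions and no test of the list. Of the 8 genes, 8 were listed in all 16 libraries, among 13596 genes listed in all 16 and 14930 listed in at least 1. Single cells were sequenced from lumbar intervertebral discs of 8 male Sprague-Dawley rats, 8 weeks old at surgery. A retroperitoneal exposure was made in every rat, and the L4-5 and L5-6 discs were each stabbed once with a 27G needle and later pooled as the punctured sample (LDP, lumbar disc puncture), while the L2-3 and L3-4 discs of the same rat were pooled as the uninjured sample (CON). Rats 1 to 4 were killed at 2 weeks and rats 5 to 8 at 8 weeks, which gave 4 groups of 4 libraries, each of 2 pooled discs. The CON discs thus came from animals that had also been operated on, and no sham-operated rat was among the samples. In every rat the LDP discs were the lower and the CON discs the upper levels. Puncture therefore cannot be told apart from disc level, and "after puncture" below only names the LDP discs against the CON discs. Every cell carried a class given by the study (IVD, meaning disc cells, or endothelial, myeloid or lymphoid), with a remainder left unnamed here, and at 2 weeks the IVD class was divided into cells of the nucleus pulposus (NP) and of the annulus fibrosus around it, by its inner (IAF) and outer (OAF) zone. The deposited class labels were Chondrocyte (or Chondrocyte cell), Endothelial, Macrophage and Immune cells. They are called here by the study's cluster names, IVD, endothelial, myeloid and lymphoid. The LDP subclusters carried numbers without names and were matched to NP, IAF and OAF by the cell counts the study gives. The questions were where in the disc each complement gene was read, and whether it differed between punctured and uninjured discs at either time.

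Complement is a set of secreted proteins and cell-surface regulators that tag and lyse targets and recruit leukocytes. In the classical pathway C1q, built from the chains of C1qa, C1qb and C1qc, binds a target, the protease C1r then activates the protease C1s, and C1s cleaves the components that form the enzyme acting on C3. Serping1 encodes C1 inhibitor, which inactivates C1r and C1s. C3 is the component on which all activation routes meet, and Cfd encodes factor D, the protease of the alternative pathway. Macrophages are a known source of C1q, fibroblasts of C1r and C1s, and the intervertebral disc is a poorly vascularised tissue whose outer annulus is its most fibrous zone.

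RefSeq promoter windows, 250 bases before to 50 bases after the gene start on the GRCr8 build, were found for 5 of the 8 genes. The deposited values were made on rn6, so these positions are not those of the files. C1r and C1s are next to each other among protein-coding genes on chromosome 4, and C1qb, C1qc and C1qa follow one another on chromosome 5. The windows of C1r (chr4:159098763-159099062, plus strand), C3 (chr9:2201290-2201589, minus strand), C1qa (chr5:154419884-154420183, minus strand) and C1qb (chr5:154407778-154408077, minus strand) are shown because the results below turn on a pair of genes read in annulus cells and a set read in myeloid cells. Capitals mark matches on either strand to GAGGAA (the core bound by the myeloid factor PU.1), TTCNNNGAA (the STAT motif) or TTGCNNAA (a C/EBP-like motif).
C1r: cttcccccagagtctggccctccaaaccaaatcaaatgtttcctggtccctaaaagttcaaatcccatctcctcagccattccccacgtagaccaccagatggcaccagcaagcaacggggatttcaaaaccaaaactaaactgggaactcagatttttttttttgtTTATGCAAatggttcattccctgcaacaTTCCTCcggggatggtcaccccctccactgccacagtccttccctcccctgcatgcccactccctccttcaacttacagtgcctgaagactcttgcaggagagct
C3: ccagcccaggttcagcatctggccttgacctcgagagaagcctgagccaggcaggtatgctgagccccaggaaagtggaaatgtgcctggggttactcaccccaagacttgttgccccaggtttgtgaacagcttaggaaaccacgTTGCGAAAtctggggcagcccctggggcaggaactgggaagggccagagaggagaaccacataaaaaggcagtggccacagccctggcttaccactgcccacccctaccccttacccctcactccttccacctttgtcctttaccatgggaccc
C1qa: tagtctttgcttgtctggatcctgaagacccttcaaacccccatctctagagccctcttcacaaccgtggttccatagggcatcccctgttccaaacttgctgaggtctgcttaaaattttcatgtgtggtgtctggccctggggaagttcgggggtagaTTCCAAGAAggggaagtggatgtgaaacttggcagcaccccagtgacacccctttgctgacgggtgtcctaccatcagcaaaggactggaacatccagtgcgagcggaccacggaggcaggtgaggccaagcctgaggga
C1qb: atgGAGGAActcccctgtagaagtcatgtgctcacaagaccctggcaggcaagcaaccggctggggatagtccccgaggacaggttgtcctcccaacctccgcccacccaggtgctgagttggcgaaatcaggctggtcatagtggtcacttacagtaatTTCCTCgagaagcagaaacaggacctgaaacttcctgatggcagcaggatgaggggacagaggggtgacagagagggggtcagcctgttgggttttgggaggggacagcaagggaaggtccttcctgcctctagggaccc
GAGGAA stood in the C1r and C1qb windows and in 27.6% of all 33469 windows, TTCNNNGAA in the C1qa window and in 8.87% of all, and TTGCNNAA in the C1r and C3 windows and in 10.6% of all. The core of the interferon-stimulated response element (GAAA, any pair of bases, GAAA), found in 3.92% of windows, was in none of the 5. No match overlapped another, and these letters say nothing of whether a factor is bound in disc cells.

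The libraries held 2221 to 15918 cells with a median of 3861 to 8092 UMIs (unique molecular identifiers, 1 per captured RNA molecule) per cell. Pairs of libraries shared at most 0.720% of the smaller library's barcodes. Several libraries stood apart in cell makeup. Lymphoid cells were 18.8% and 11.7% of the LDP libraries of rats 3 and 4 and 20.5% of the CON library of rat 6, against at most 0.772% in the CON libraries of 2 weeks. The LDP library of rat 6 was the smallest, with 59.1% IVD cells and 28.3% unnamed cells. No CON cell of 8 weeks was named endothelial. Within their own classes the markers of the labels were present: the summed level of 5 cartilage genes (Acan, Col2a1, Sox9, Fmod and Comp) in IVD cells was 9031 to 28739 CPM (UMIs of a gene per 1000000 UMIs of a cell, averaged over cells), that of 4 endothelial genes in endothelial cells was 3146 to 6034 CPM, and that of 4 myeloid genes in myeloid cells was 1662 to 10353 CPM. The neutrophil genes S100a8, S100a9, Camp and Ngp, however, summed to 50220 CPM in the myeloid class of the CON library of rat 1 and to 43432 and 56101 CPM in that of the LDP libraries of rats 3 and 4, and were at most 1288 CPM in the other 12 myeloid classes of at least 20 cells.

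Among the named classes and subclusters, C1s, C1r and Serping1 had their highest level in OAF cells in both groups at 2 weeks. C1s in CON libraries of 2 weeks was 414 ± 114 CPM (SD, n = 4) in OAF cells, 23.3 ± 6.84 in IAF cells, 11.4 ± 12.9 in myeloid cells, 9.66 ± 0.883 in NP cells and 4.98 ± 1.08 in endothelial cells. Every OAF value lay above every value of the other classes, and the NP values lay below the IAF and above the endothelial values, while the myeloid values overlapped with all 3. OAF cells were 9.92% of the CON cells of 2 weeks and held 73.6% of their C1s UMIs. For C1r the order was OAF 498 ± 121, IAF 54.6 ± 8.30, NP 36.2 ± 1.60, endothelial 22.2 ± 8.46 and myeloid 14.3 ± 13.0 CPM, with overlap only between the last 2, and OAF cells held 50.5% of its UMIs. Serping1, which inhibits the products of both, was less concentrated. Its levels were 381 ± 86.4 CPM in OAF, 107 ± 16.2 in IAF, 82.6 ± 10.5 in NP, 30.3 ± 9.79 in endothelial and 22.1 ± 21.8 in myeloid cells, and OAF cells held 26.7% and IAF cells 19.0% of its UMIs while NP cells, the most numerous, held 47.6%. The IAF and NP values of Serping1 overlapped, as did the endothelial and myeloid values.

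The unnamed cells of the CON discs at 2 weeks were a further place where these genes were read: C1s was at 32.8 ± 8.45, C1r at 145 ± 23.6 and Serping1 at 258 ± 106 CPM there, the last overlapping with its OAF values. These cells carried the pericyte and muscle genes Acta2, Rgs5, Myh11, Tagln and Des at a summed 2845 to 6301 CPM, against 14.2 to 46.8 CPM in OAF cells of the same libraries. In the unnamed cells of LDP discs at 2 weeks C1r was 8.48 to 92.4 CPM and the pericyte and muscle sum was 45.1 to 747 CPM, so the cells without a name were not alike in the 2 groups and no test was made between them. Classes were drawn by the study from the same cells, so class differences are given as descriptions.

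**Figure D1:**
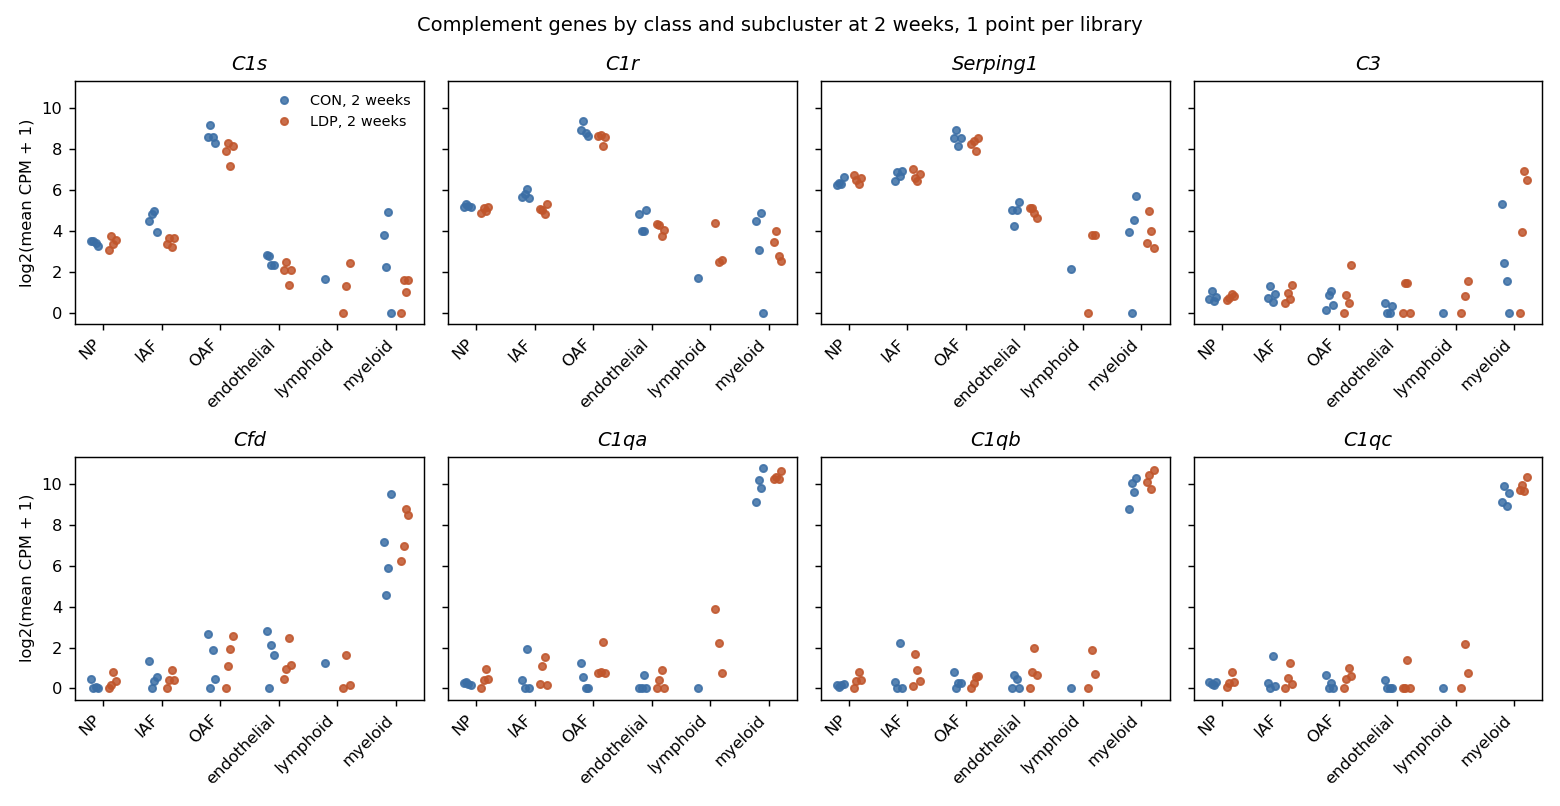
Level of each complement gene by subcluster and class at 2 weeks, as log2(mean CPM + 1) on the vertical axis, with 1 point per library of at least 20 such cells. C1s, C1r and Serping1 are highest in OAF cells, where CON libraries average 414, 498 and 381 CPM, and C1qa, C1qb, C1qc and Cfd in myeloid cells, where C1qa averages 1099 CPM in CON libraries.

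In the IVD class, C1s was lower in the LDP library than in the CON library of the same rat in 7 of 8 rats. At 2 weeks it was 70.6, 88.7, 55.2 and 41.0 CPM in the CON libraries of rats 1 to 4 and 22.6, 61.0, 21.1 and 51.5 CPM in their LDP libraries. Rat 4 went the other way and the groups overlapped. At 8 weeks C1s was 42.8, 37.3, 42.6 and 52.1 CPM in the CON libraries of rats 5 to 8 and 10.99, 22.2, 31.8 and 30.7 CPM in their LDP libraries. Every LDP library of 8 weeks lay below every CON library, as it did for 11.3% of the 11572 genes tested in this class at this time. Over both times C1s fell by 0.86 on the log2(CPM + 1) scale (± 0.216 SE, limma with Benjamini-Hochberg adjustment over all genes, adjusted p = 0.0418, n = 8 rats), which passed the threshold of 0.05.

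C1r, whose product activates C1s, followed the same course. Its level at 2 weeks was 109, 125, 89.4 and 75.3 CPM in the CON libraries of rats 1 to 4 and 53.4, 93.7, 53.0 and 89.3 CPM in the LDP libraries, again with rat 4 alone higher after puncture. At 8 weeks it was 64.6, 58.6, 61.0 and 83.9 CPM in CON and 23.5, 37.0, 43.5 and 46.8 CPM in LDP libraries, with no overlap. C1r fell by 0.66 on the log2 scale over both times (± 0.146 SE, limma, adjusted p = 0.0300). At the separate times neither gene passed: the difference was −0.48 for C1r (limma, adjusted p = 0.410) and −0.79 for C1s (adjusted p = 0.370) at 2 weeks, and −0.84 (adjusted p = 0.0975) and −0.94 (adjusted p = 0.151) at 8 weeks, where limma called 0.181% of all genes at 2 weeks and 0.259% at 8 weeks. Without rat 4, which belongs to the 2-week groups but enters the shared estimate of the spread, C1r was called at 8 weeks (limma, adjusted p = 0.0329), and leaving out each other rat gave 0.109 to 0.347. The difference between the effects at 8 and 2 weeks was −0.36 ± 0.293 (SE) for C1r and −0.15 ± 0.433 for C1s, both with a limma adjusted p of 1.00, and 0 of 11572 genes were called for this difference by limma (206 at an unadjusted p under 0.05).

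Serping1 did not pass the test in the same cells. Its level in the IVD class at 2 weeks was 125, 142, 109 and 134 CPM in CON and 126, 131, 97.0 and 142 CPM in LDP libraries, and at 8 weeks it was 62.6, 87.6, 90.3 and 168 CPM in CON and 37.8, 100.2, 121 and 177 CPM in LDP libraries. It was lower after puncture in 3 of 8 rats, with groups that overlapped at both times and a wide spread at 8 weeks. Its mean difference was −0.03 ± 0.117 on the log2 scale (limma, adjusted p = 0.889), less than its SE. C3 in the IVD class was near the floor, at 0.441 to 3.33 CPM, with a mean difference of 0.25 ± 0.151 (limma, adjusted p = 0.275). Cfd and the C1q genes did not reach 1 CPM in 4 libraries of this class and were not tested in it.

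Of the 4 genes tested in the IVD class, then, 2 were called and both were lower, where 7.44% of all 11572 genes were called, 5.46% lower and 1.98% higher. The median difference of all genes was −0.12 on this scale, limma called 229 genes higher and 632 lower, and edgeR, which differs in its summed UMIs, count model and TMM scaling together, gave a median of −0.02 with 449 higher and 381 lower. Under edgeR the difference was −0.51 for C1r (adjusted p = 0.0766) and −0.72 for C1s (adjusted p = 0.0861), so neither was called, whereas DESeq2 called both (adjusted p = 0.0234 and 0.0150) where it called 15.7% of all genes in either direction and 6.84% as lower. Leaving out any single rat other than rat 4 also ended both limma calls, with adjusted p of 0.0522 to 0.0802 for C1r and 0.0649 to 0.0986 for C1s. Means over a class cannot tell fewer cells with the gene from less RNA of it per cell.

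**Figure D2:**
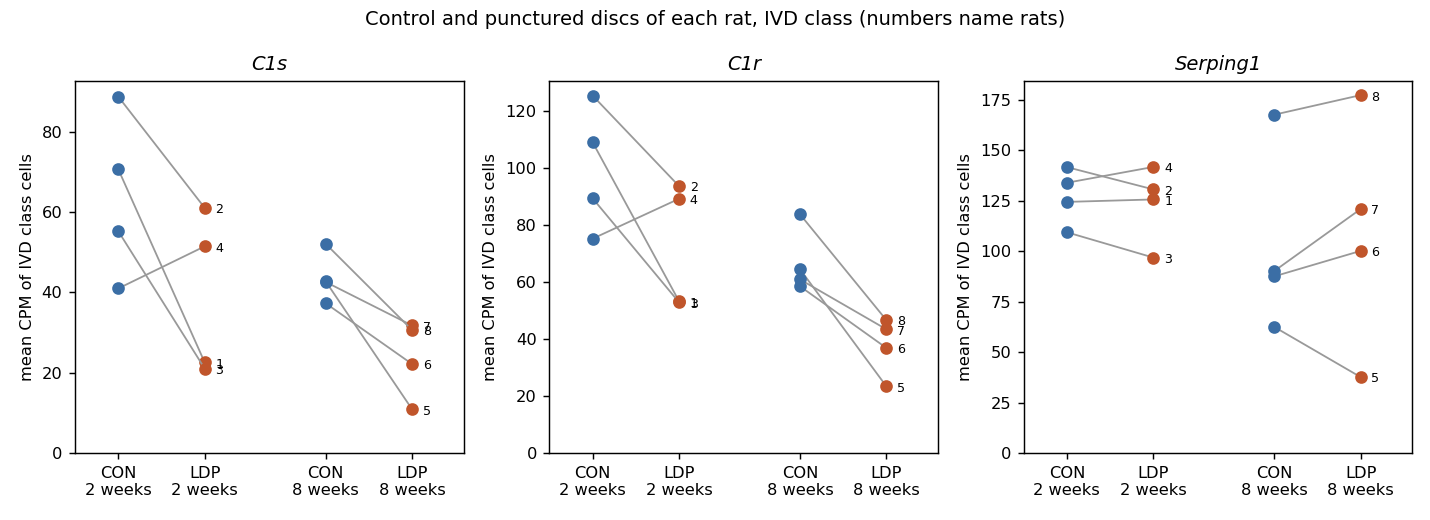
Mean CPM of C1s, C1r and Serping1 in IVD class cells of the CON and LDP libraries at 2 and 8 weeks, with a line for each rat. C1s and C1r fall along the line in every rat except rat 4, while Serping1 falls in 3 of 8 rats.

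Genes that mark OAF cells were lower after puncture beside C1s and C1r in 7 of the 8 rats, while in rat 4 their sum was 2139 CPM in CON and 1433 CPM in the LDP library and C1s and C1r were higher after puncture. The summed level of Igfbp5, Igfbp6, Lum, Myoc and Fibin in the IVD class was 1647 to 2862 CPM in CON and 893 to 1640 CPM in LDP libraries at 2 weeks. At 8 weeks it was 877 to 1570 CPM in CON and 387 to 848 CPM in LDP libraries. It was lower after puncture in each of the 8 rats, but in rat 2 hardly so. That rat had 1647 CPM in CON and 1640 CPM in LDP, while its C1s and C1r were clearly lower after puncture. At 8 weeks, 2 other marker lists also lay lower in every LDP library of the class than in every CON library. The 4 endothelial genes summed to 94.5 to 114 CPM in CON and 58.8 to 88.4 CPM in LDP libraries, and 6 interferon response genes to 29.1 to 38.6 CPM and 14.4 to 25.3 CPM. At 2 weeks both lists overlapped between the groups. The share of the 2-week IVD class that was named OAF was 14.6, 13.4, 9.28 and 10.1% in CON and 6.29, 16.4, 9.27 and 14.98% in LDP libraries, clearly lower after puncture only in rat 1. The part of these shifts in the C1s and C1r differences of the whole class was not tested. IVD cells with a UMI of at least 3 of the 5 OAF genes, a choice made after the data were seen, made up a smaller share of the class after puncture in every rat: they were 20.1, 19.7, 22.3 and 19.5% in CON and 9.93, 19.0, 11.2 and 18.9% in LDP libraries of rats 1 to 4, and 11.1, 9.62, 6.72 and 13.3% in CON and 2.92, 6.70, 4.12 and 6.84% in LDP libraries of rats 5 to 8. This share was not matched for depth. Within these cells the mean difference was −0.40 on the log2 scale for C1s (lower in 7 of 8 rats), −0.31 for C1r (6 of 8) and −0.11 for Serping1 (4 of 8). They were chosen by genes that were themselves lower after puncture, so these values are given with no test and do not separate the makeup of the class from the level per cell. At 2 weeks 38.0 to 64.5% of these cells were in the OAF subcluster, and in each library 43 to 1510 of them held exactly 3 of the genes, just inside the choice, while 152 to 2514 further IVD cells held exactly 2, just outside it.

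Among the subclusters of 2 weeks, C1s and C1r were lower after puncture in every rat in the IAF and OAF cells, without passing the test in either, and whether these differences are unlike those of NP cells was not tested. In OAF cells C1s was 386, 576, 384 and 310.0 CPM in CON and 239, 312, 142 and 281 CPM in LDP libraries, lower in 4 of 4 rats with a slight overlap. C1r in OAF cells was 492, 668, 439 and 391 CPM in CON and 399, 405, 287 and 387 CPM in LDP libraries, and Serping1 was 376, 490.2, 279 and 377 CPM in CON and 299, 332, 236 and 372 CPM in LDP libraries. Both overlapped, and both were lower in 4 of 4 rats, as were 14.6% of the 8802 genes tested. The differences were −0.78 ± 0.196 (SE) for C1s (limma, adjusted p = 0.136), −0.41 ± 0.152 for C1r (adjusted p = 0.357) and −0.29 ± 0.138 for Serping1 (adjusted p = 0.476), none called, against 1.42% of genes called. Without rat 4 C1s was called in OAF cells (limma, adjusted p = 0.0127), and leaving out each of the other rats gave 0.342 to 0.749.

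In IAF cells C1s was 21.3, 27.1, 30.1 and 14.6 CPM in CON and 9.38, 11.4, 8.17 and 11.4 CPM in LDP libraries, and C1r was 49.8, 55.5, 65.9 and 47.1 CPM in CON and 33.0, 31.8, 27.7 and 38.2 CPM in LDP libraries. Neither gene overlapped between the groups, and 7.1% of 7730 genes were lower with no overlap. Their differences were −1.09 ± 0.242 (limma, adjusted p = 0.182) and −0.72 ± 0.196 (adjusted p = 0.267), and Serping1, at 86.4 to 123 CPM in CON and 87.1 to 129.6 CPM in LDP libraries, differed by −0.04 ± 0.196. Without rat 4 C1s was called in IAF cells (limma, adjusted p = 0.0378), and leaving out each of the other rats gave 0.280 to 0.674. limma called 0 of 7730 genes in IAF cells, with 987 at an unadjusted p under 0.05, and edgeR also called 0. In NP cells C1s was 8.47 to 10.4 CPM in CON and 7.28 to 12.6 CPM in LDP libraries and differed by 0.02 ± 0.173, C1r differed by −0.18 ± 0.130 although it was lower in 4 of 4 rats, as were 9.95% of 7791 genes, and Serping1 by 0.14 ± 0.146. limma called 0 genes in NP cells, with 749 at an unadjusted p under 0.05, and edgeR called 1.

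The cells put into these subclusters were not alike in the 2 groups by other measures. The sum of the 5 OAF genes was 9134 to 14830 CPM in OAF cells of CON and 6394 to 9792 CPM in those of LDP libraries, and 795 to 1283 CPM against 315 to 511 CPM in IAF cells. In IAF cells, where C1s and C1r had their largest differences, the endothelial genes summed to 74.9, 249, 448 and 92.7 CPM in CON and 35.1, 64.2, 36.4 and 56.7 CPM in LDP libraries, and the interferon response genes to 19.0 to 68.0 CPM and 11.8 to 17.4 CPM, neither with overlap. The pericyte and muscle genes were at 156 and 245 CPM in IAF cells of CON rats 2 and 3, against 37.7 to 50.1 CPM in LDP libraries. OAF cells of LDP libraries held 516 to 812 CPM of the 5 pericyte and muscle genes, against 14.2 to 46.8 CPM in CON, and 372 to 899 CPM of 4 Schwann cell genes, against 212 to 286 CPM. LDP cells named IAF were near LDP cells named NP by several values. Their OAF gene sums were 315 to 511 and 350 to 467 CPM. Mean C1s was 10.1 and 9.99 CPM, C1r 32.7 and 32.1 CPM, and Serping1 105 and 90.8 CPM. The study clustered the CON and the LDP cells apart, and the LDP names were matched by cell counts. A shift in which cells were named OAF or IAF therefore cannot be told apart from a shift in level within such cells.

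**Figure D3:**
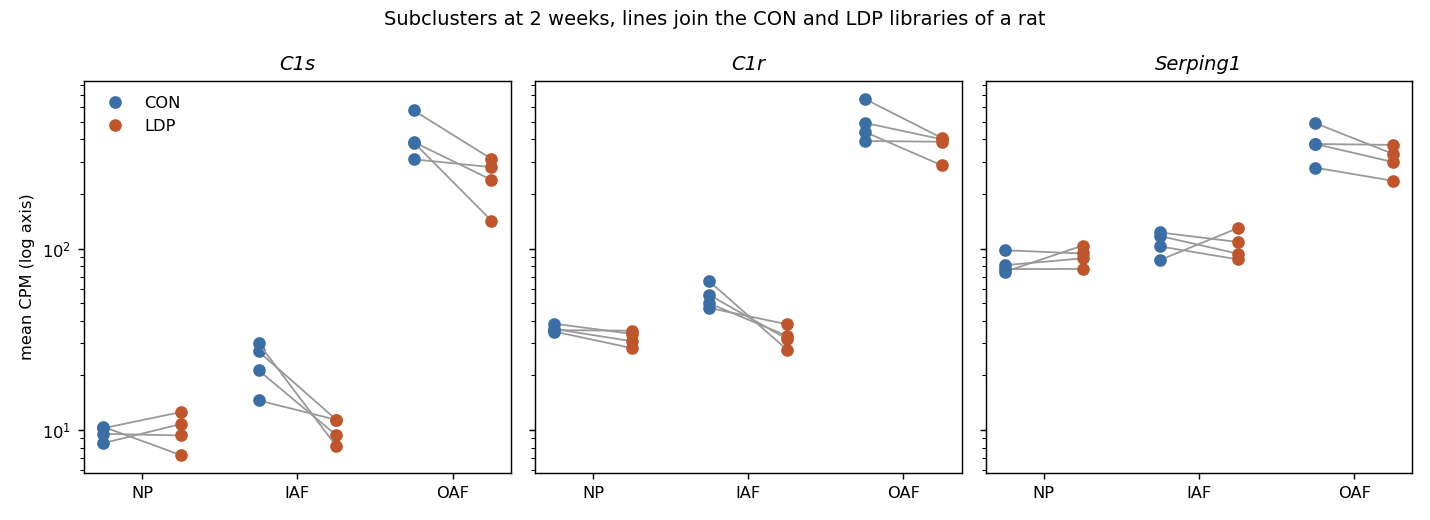
Mean CPM (log axis) of C1s, C1r and Serping1 in NP, IAF and OAF cells at 2 weeks, with lines joining the CON and LDP libraries of each rat. All 4 lines fall for C1s and C1r in IAF and OAF cells, for C1r in NP cells and for Serping1 in OAF cells. In NP cells C1s falls in 2 of 4 rats.

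The share of IVD cells with a UMI was compared after each cell had been thinned to 1000 UMIs, which removed differences in depth (72 to 421 IVD cells of a group had fewer and were left out). C1s was then seen in 4.77 ± 1.23% (SD, n = 4) of CON and 3.13 ± 1.45% of LDP cells at 2 weeks, and in 3.49 ± 0.455% and 2.03 ± 0.808% at 8 weeks. As a comparison class, endothelial cells had a C1s share of 0.502% in CON and 0.316% in LDP libraries at 2 weeks after the same thinning. It was thus lower after puncture there too, and this was not tested. C1r was seen in 8.03 ± 1.32% and 6.05 ± 1.64% of IVD cells at 2 weeks, against 2.12% and 1.60% of endothelial cells, and in 5.51 ± 0.895% and 3.36 ± 0.871% at 8 weeks. The endothelial cells of LDP libraries at 8 weeks, 650 in all, had C1s in 0.635 ± 0.363% and C1r in 2.79 ± 0.931%. Lymphoid cells of the same libraries, 1391 in all, had C1s in 0.248 ± 0.321% and C1r in 0.312 ± 0.252%, and myeloid cells had C1r in 1.28 ± 0.808%. The C1r share of LDP disc cells at 8 weeks was thus near that of endothelial cells and above those of myeloid and lymphoid cells, and how much of any of these shares is free RNA was not tested. By exact two-sided permutation over libraries the p was 0.171 for C1s and 0.114 for C1r at 2 weeks, and 0.0286 for each at 8 weeks, the smallest that 4 against 4 can give. That test leaves aside that both libraries came from 1 rat, and sign flips within the 4 rats of a time cannot go below 0.125, so neither 8-week difference passes as a paired test. Exact sign flips over the 8 rats of both times gave p = 0.0234 for C1s and 0.0156 for C1r. These are 4 of 24 unadjusted tests over the 8 genes, and no other passed. At 1000 UMIs the share closely follows mean CPM. In LDP libraries of 8 weeks C1s was at 23.9 CPM and 2.03%, and C1r at 37.7 CPM and 3.36%. The thinned tests thus nearly repeat the comparison of CPM. They cannot tell fewer cells with the gene from less RNA of it per cell. With all UMIs of each cell the shares were 11.8 ± 1.02% in CON and 9.45 ± 2.92% in LDP cells for C1s at 8 weeks and 20.4 ± 2.499% and 17.2 ± 2.93% for C1r, and neither exact test passed (p = 0.229 for both). At 8 weeks LDP cells were the deeper ones in 3 of 4 rats, with library medians of 6209 to 8092 UMIs against 4671 to 7566, and in rat 7 the CON library was the deeper. Serping1 was seen in 10.9 ± 0.845% and 10.8 ± 1.38% of thinned IVD cells at 2 weeks and in 8.66 ± 3.61% and 9.43 ± 4.80% at 8 weeks.

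C1qa, C1qb and C1qc were read almost entirely in the myeloid class, which made up 0.852 to 1.41% of the cells of a group. That class held 94.7 to 98.6% of the C1qa UMIs of a group, 93.2 to 98.5% of those of C1qb and 94.4 to 98.2% of those of C1qc. In single CON libraries of 2 weeks its share went down to 87.6% for C1qa, 83.6% for C1qb and 83.1% for C1qc. IVD cells held up to 16.9% of the C1qc UMIs of such a library. The 3 genes were at 329.9 to 1763 CPM in the myeloid cells of the 15 libraries with at least 20 of them and at most 2.02 CPM in the IVD cells of each library. Between 17.7 and 66.1% of the myeloid cells of a library carried UMIs of all 3 genes and 19.4 to 78.9% carried none. Only 0 to 4 IVD cells of a library carried all 3. For each C1qb UMI in myeloid cells, a library held 0.895 to 1.68 C1qa UMIs and 0.629 to 1.33 C1qc UMIs.

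At 2 weeks the myeloid cells with no C1q UMI held more neutrophil RNA than those with C1q, given here as pooled CPM over the cells of a group. In the LDP discs of 2 weeks, the 374 such cells held 19800 CPM of S100a8 and 95.1 CPM of Csf1r, the receptor that marks macrophages, while the 297 cells with all 3 genes held 188 CPM of S100a8 and 416 CPM of Csf1r. In CON discs the pooled values were 11168 CPM of S100a8 in 250 cells without C1q and 96.3 CPM in 136 cells with all 3. These pooled values rest on few libraries. In CON, rat 1 alone had neutrophil genes in the class, and 74.1% of its 259 myeloid cells lacked C1q. In the CON libraries of rats 2 to 4 the neutrophil sum of the class was 0 and 19.4 to 44.6% of the myeloid cells still lacked C1q. Among LDP libraries of 2 weeks rats 3 and 4 held the high sums, with 64.8 and 42.0% of myeloid cells lacking C1q, against 37.5 and 30.6% in rats 1 and 2. At 8 weeks S100a8 was 222 CPM in CON and 177 CPM in LDP cells without C1q, against 10.6 and 20.9 CPM in cells with all 3 genes. Csf1r was then 29.0 CPM in CON and 251 CPM in LDP cells without C1q, against 425 and 319 CPM in cells with all 3. The LDP cells without C1q at 8 weeks were thus near those with C1q in Csf1r, unlike those of 2 weeks.

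No C1q gene passed the test between punctured and uninjured discs in the myeloid class. C1qb was 430.0, 1060.2, 779 and 1259 CPM in CON and 1101, 1361, 865 and 1614 CPM in LDP libraries of rats 1 to 4, higher in each of the 4 rats but with groups that overlapped. C1qc was likewise higher in each of the 4 rats. The share of all genes higher in each rat is not given here, so these counts do not set the 2 genes apart. The difference was 0.56 ± 0.236 (SE) for C1qb, 0.55 ± 0.248 for C1qc and 0.38 ± 0.310 for C1qa, each with a limma adjusted p of 0.917. At 8 weeks C1qb was 396, 885, 805 and 981 CPM in CON libraries of rats 5 to 8 and 713, 942 and 903 CPM in LDP libraries of rats 5 to 7, and the difference was 0.37 ± 0.273 (adjusted p = 0.651), with C1qc at 0.28 ± 0.286 and C1qa at 0.17 ± 0.358. The LDP library of rat 8 had 19 myeloid cells, under the minimum of 20, and was left out of this fit. Of 7 complement genes tested in myeloid cells, limma called 0 at either time, against 0% of 9030 genes at 2 weeks and 0.144% at 8 weeks. At an unadjusted p under 0.05 there were 393 genes at 2 weeks, C1qb and C1qc among them, and edgeR called 0 of all genes at that time. At 8 weeks there were 1062 such genes, with 1 of the 7 complement genes among them, higher after puncture. Myeloid C1r at 8 weeks was 9.04, 0, 0 and 9.01 CPM in CON and 14.1, 21.8 and 4.22 CPM in LDP libraries. The myeloid class held only 6 C1r UMIs in the CON and 14 in the LDP group. Serping1 there was 3.23, 6.35, 0 and 3.78 CPM in CON and 1.69, 2.68 and 11.5 CPM in LDP libraries.

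Over all cells of a library, the C1q level is mostly that of its few myeloid cells diluted by all others. C1qb over all cells was 9.74, 17.1, 6.71 and 2.45 CPM in CON and 4.09, 10.6, 22.8 and 29.0 CPM in LDP libraries at 2 weeks, high in the LDP libraries of rats 3 and 4, where myeloid cells were 2.499% and 1.77% of all. The difference at 2 weeks was 0.76 ± 0.618 (limma, adjusted p = 0.710), and without those 2 rats it was −0.86 (adjusted p = 0.917). At 8 weeks C1qb was 7.55, 15.3, 6.21 and 4.77 CPM in CON and 4.98, 14.5, 12.9 and 1.80 CPM in LDP libraries, with a difference of −0.17 ± 0.618. In the CON libraries of rats 1 and 5 myeloid cells were 2.20% and 1.80% of all, but 20.1% and 17.7% of them carried all 3 C1q genes.

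Cfd was likewise mostly a myeloid gene, with 62.8 to 92.2% of its UMIs in the myeloid class of a group. In single CON libraries of 2 weeks the myeloid class held 34.8 to 100% and the IVD class 0 to 45.7%. Its level there was uneven between libraries, at 142, 22.5, 58.4 and 724 CPM in CON and 73.0, 122, 430.5 and 358 CPM in LDP libraries at 2 weeks, and 129, 596, 364 and 27.1 CPM in CON and 315, 419.9 and 119.6 CPM in LDP libraries at 8 weeks. The highest value, in the CON library of rat 4, came from 25 myeloid cells. Neither time gave a difference that stood out from this spread (0.82 ± 0.624 at 2 weeks, adjusted p = 0.917, and −0.28 ± 0.720 at 8 weeks, adjusted p = 0.917, limma). Leaving out 1 rat moved the 2-week value to 0.14 (rat 3), 0.30 (rat 2), 1.41 (rat 1) or 1.43 (rat 4). Cfd was read beside C1q: in the CON discs of 8 weeks it was 1211 pooled CPM in myeloid cells with all 3 C1q genes and 12.7 in those with none. Factor D is also known from fat cells. Of the adipocyte list, 2 of 4 genes were listed in all libraries: at 2 weeks Adipoq was at 0 to 9.37 CPM in myeloid and 1.01 to 3.69 CPM in OAF cells, while Fabp4, also known from macrophages and capillary endothelium, was at 130 to 531 CPM in myeloid, 4.35 to 39.0 CPM in OAF and 1248 to 4239 CPM in endothelial cells. The part of fat cells in the Cfd level was not tested.

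C3 was sparse, with 1731 UMIs in all 149272 cells. The IVD class, 82.4 to 87.7% of the cells of a group, held 80.8% of the C3 UMIs in CON and 43.7% in LDP libraries at 2 weeks and 151 of 302 and 394 of 783 UMIs at 8 weeks, at the low levels per cell given above. These pooled shares were uneven between libraries. They ran from 50.9 to 96.4% in CON and 20.3 to 100% in LDP at 2 weeks, and from 29.7 to 95.8% and 22.9 to 97.4% at 8 weeks. The densest C3 was read beside neutrophil genes. The 734 cells with at least 10 S100a8 UMIs held 446 of these UMIs, or 25.8%. In the myeloid class C3 was 39.1, 4.43, 1.97 and 0 CPM in CON and 0, 14.6, 122 and 87.5 CPM in LDP libraries at 2 weeks. The libraries of 2 weeks with C3 above 20 CPM there were those of CON rat 1 and LDP rats 3 and 4, which were also those with the highest neutrophil sums in the class. The difference was 2.01 ± 1.41 (SE; limma, adjusted p = 0.917), and single rats moved it, to 4.45 without rat 1 (adjusted p = 0.0799), 0.89 without rat 3 and 0.52 without rat 4. At 8 weeks myeloid C3 was 28.6, 3.35, 6.54 and 0 CPM in CON and 226, 25.5 and 48.2 CPM in LDP libraries of rats 5 to 7, with a difference of 2.75 ± 1.63 (adjusted p = 0.553). The highest of these, from 47 cells of LDP rat 5, had only 254 CPM of neutrophil genes beside it. At 8 weeks the S100a8 cells were mostly among those without a class name, with 244 of 258 in LDP rat 7 and 135 of 153 in CON rat 5, and C3 was at 242 and 184 pooled CPM in the unnamed ones of them, against 1.70 and 26.2 in the other unnamed cells of these libraries.

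Over all cells C3 was 1.48, 1.04, 0.483 and 0.670 CPM in CON and 0.425, 1.00, 3.77 and 2.96 CPM in LDP libraries at 2 weeks, and 6.37, 0.792, 1.34 and 0.618 CPM in CON and 3.70, 2.81, 9.74 and 1.72 CPM in LDP libraries at 8 weeks. The 4 highest libraries each held at least 0.349% S100a8 cells. Others went against this order: CON rat 1 held 0.933% S100a8 cells, the third highest share, with C3 at 1.48 CPM, and LDP rat 8 held 0.0221% with C3 at 1.72 CPM. The mean difference of both times was 0.69 ± 0.339 (limma, adjusted p = 0.319). The part of neutrophils in this difference was not tested.

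**Figure D4:**
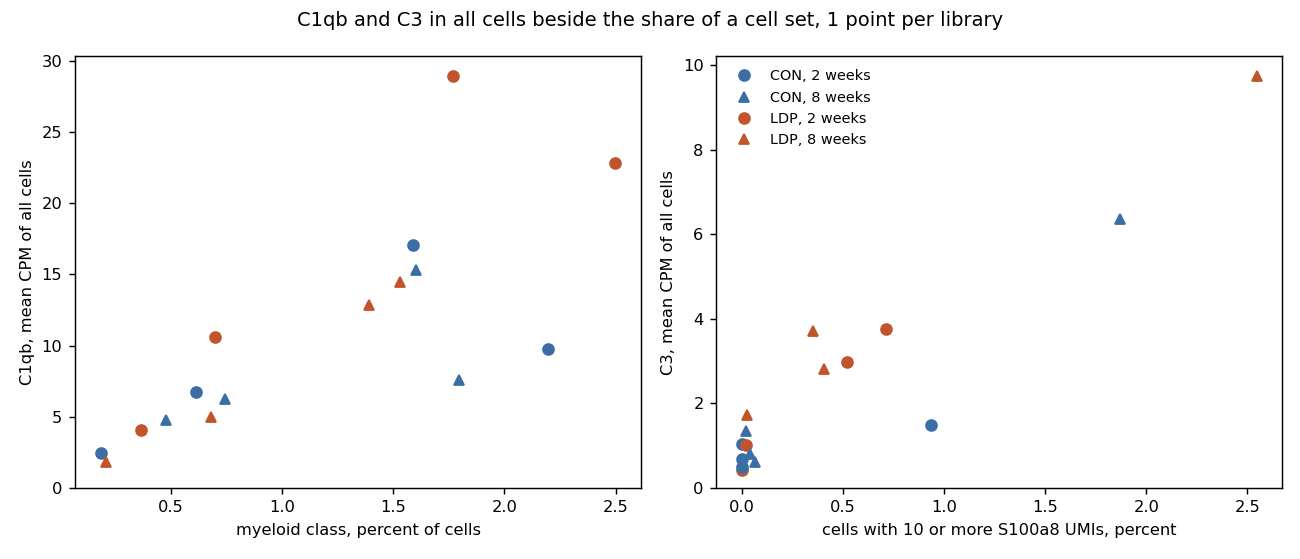
Left, C1qb over all cells (mean CPM) against the share of cells in the myeloid class; right, C3 over all cells against the share of cells with 10 or more S100a8 UMIs, with 1 point for each of the 16 libraries. The LDP libraries of rats 3 and 4 (22.8 and 29.0 CPM) lead for C1qb, and LDP rat 7 (9.74 CPM) and CON rat 5 (6.37 CPM) lead for C3.

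Over all cells, none of the 8 complement genes was called in the mean of both times, where limma called 0.697% of 12199 genes, nor at 2 weeks (0%) or 8 weeks (0.0082%). C1r came nearest, with a mean difference of −0.68 ± 0.144 (SE; adjusted p = 0.0655) and lower in 8 of 8 rats (12.1% of genes were lower in all rats at 2 weeks and 15.6% at 8 weeks), followed by C1s at −0.89 ± 0.208 (adjusted p = 0.0836) in 7 of 8. DESeq2 on the summed UMIs called both (adjusted p = 0.0126 and 0.0127), where it called 8.74% of all genes in either direction and 3.94% as lower. Serping1 was at −0.12 ± 0.113, with the sign turned under DESeq2 and edgeR (0.055 and 0.046). In endothelial cells at 2 weeks C1r (−0.37 ± 0.267) and Serping1 (0.03 ± 0.265) were tested and not called, with limma calling 0 of 8501 genes (366 at an unadjusted p under 0.05) and edgeR 33. Endothelial C1s was too low to be tested. It averaged 4.98 CPM in CON and 3.11 CPM in LDP libraries and was lower in each rat, as in IAF and OAF cells. Pooled over the cells of a library it averaged 4.91 and 4.56 CPM.

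Uninjured disc cells of 8 weeks had less C1r than those of 2 weeks. In the IVD class of CON libraries it averaged 99.8 ± 22.0 CPM (SD, n = 4) at 2 weeks and 67.0 ± 11.5 CPM at 8 weeks, and fell by 0.56 on the log2 scale (± 0.165 SE, limma, adjusted p = 0.0390), among 19.3% of 11201 genes called, 11.8% lower and 7.47% higher. edgeR did not call it (adjusted p = 0.0740), nor did limma when any library other than those of rats 4 and 8 was left out (adjusted p = 0.0656 to 0.0991). C1s at −0.49 ± 0.205 (adjusted p = 0.114) and Serping1 at −0.41 ± 0.239 (adjusted p = 0.253) were not called, but C1s was called without rat 4 (−0.68, adjusted p = 0.0254) and Serping1 without rat 8 (−0.67, adjusted p = 0.0176, limma). In LDP libraries the same comparison gave −0.92 ± 0.265 for C1r (adjusted p = 0.0790), −0.64 ± 0.411 for C1s and −0.36 ± 0.387 for Serping1, with 4.37% of 10961 genes called. Different rats were used at the 2 times, and age, time after surgery and processing run cannot be told apart here. In the same class of CON libraries the sum of the 5 OAF genes was also lower at 8 weeks, as given above, as were that of the 4 endothelial genes, at 173 to 335 CPM at 2 weeks and 94.5 to 114 CPM at 8 weeks, and that of the 5 cartilage genes, at 19557 to 28739 and 9031 to 13591 CPM, each with no overlap. Their part in the C1r difference was not tested.

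A wider list of 42 complement genes was read beside these 8, of which 26 were listed in all libraries, 4 in some and 12 in none. Of the 26, 8 had their highest level among the named classes at 2 weeks in myeloid cells, 7 in OAF, 4 in NP, 4 in endothelial and 3 in IAF cells. Several of these placings rest on levels near the floor, the lowest of them 0.336 CPM. Unnamed cells were left out of this count. C7, for example, averaged 20.9 CPM in OAF cells and 83.4 CPM in the unnamed cells of 2 weeks. By mean CPM over all cells, genes among the leading 8 were Clu (clusterin, which blocks assembly of the terminal complex) at 3674 CPM, C1qbp (a mitochondrial protein that also binds C1q) at 205, the surface regulators Cd55 at 99.9, Cr1l at 93.0 and Cd59 at 84.1, the scavenger collectin Colec12 at 68.1, and C4b, a substrate of C1s, at 32.6 CPM. In the IVD class 4 of 19 tested genes of this list were lower after puncture over both times and 0 were higher, beside 5.46% of all genes called lower. Among them were C7, a component of the terminal complex, which fell by 0.82 ± 0.173 (SE, limma, adjusted p = 0.0273), Cd55 by 0.80 ± 0.157 (adjusted p = 0.0229) and Colec12 by 0.71 ± 0.117 (adjusted p = 0.0133), each lower in 8 of 8 rats. Cr1l, which was not called, was also lower in 8 of 8 rats. The share of all genes lower in 8 of 8 rats is not given here, so this count does not set the called genes apart. edgeR and DESeq2 called C7, Cd55 and Colec12 as well, and called 3.29% and 6.84% of all genes as lower. Leaving out each rat in turn ended the limma call in 6 of 8 cases for C7, 4 for Cd55 and 0 for Colec12. C7 was near the floor in this class, at 0 to 7.23 CPM over the libraries.

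Cd55 averaged 112 CPM in CON and 69.3 CPM in LDP libraries at 2 weeks and 149 and 85.5 CPM at 8 weeks in the IVD class, and at 2 weeks was 23.0 CPM in OAF cells against 98.9 in NP and 102 in IAF cells. The median difference of the 19 genes was −0.17 and that of all genes −0.12. Over all cells 2 of 23 were lower, against 0.451% of all genes, C7 (−1.14, adjusted p = 0.0430) and Colec12 (−0.77, adjusted p = 0.0274, limma), and leaving out 1 rat ended the call in 8 of 8 and 6 of 8 cases. From 2 to 8 weeks in the IVD class of CON libraries 2 of 18 were higher and 1 lower, against 7.47% and 11.8% of all genes: C1qbp by 0.53 (adjusted p = 0.00724) and Cfp, the stabiliser properdin, by 0.67 (adjusted p = 0.0113), and C7 was lower, by a difference of −1.50 (adjusted p = 0.00191). In every other comparison none of the list was called. Cfp and C7 were low in the IVD class of CON libraries. Cfp averaged 0.848 CPM at 2 weeks and 1.96 CPM at 8 weeks, and C7 averaged 4.79 and 1.03 CPM.

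The genes whose levels followed each complement gene most closely over 44 units of library and class were found among 10984 genes by Pearson's r, as a description, since units of 1 library share its depth and classes were drawn on these cells. The nearest genes of the proteases were Adamts2 (r = 0.972), Igfbp6 (0.959) and Mmp2 (0.957) for C1s, and Igfbp6 (0.966), Rarres2 (0.941) and Ogn (0.935) for C1r. Serping1 went with Pcolce (0.960), Aoc3 (0.954) and Pkd1 (0.947). C1qb and C1qc were nearest to each other (0.996), followed by RGD1559482 and then Trem2 or Aif1, and C1qa went with Pld4 (0.988), Csf1r (0.986) and C1qc (0.985). Cfd went with Fcna (0.949), which encodes a ficolin of macrophages, Aif1 (0.947) and Mrc1 (0.945), and C3 with Gprc5d (0.934), LOC24906 (0.921) and Cd177 (0.917), the last a neutrophil surface gene.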

How the data were processed

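Single-cell RNA was captured with 10x 3′ v3.1 chemistry and sequenced on a NovaSeq S4 flow cell. Per the labels, the submitters' processing notes name Partek and the rn6 build; the aligner is not given in the sources used here. The authors filtered cells on mitochondrial percent, genes and UMIs, and deposited for each cell log2(CPM + 1) of each gene, its class, and the quality values. The total UMI number of each cell was deposited by the authors as an expected count (not always whole), and the mitochondrial share as a percent. Multiplying CPM by the deposited total count gave whole UMIs within 0.02 for 99.4% of values above 0. CON and LDP cells were clustered separately by the authors at each time. The LDP subcluster numbers were matched to NP, IAF and OAF by the cell counts the study gives, since the files do not name them. Muscle and ligament had been dissected away, and cells were freed with collagenase and pronase. No doublets were called here, and values are not divided by gene length, so levels are compared within a gene.

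CPM were averaged over the cells of a library and class (at least 20 cells) and tested as log2(CPM + 1) with limma 3.58.1 (R 4.3.3, trend, rat as block, Benjamini-Hochberg over all genes, two-sided threshold 0.05) among genes at 1 CPM (all cells, IVD class) or 5 CPM (other classes) in at least 4 libraries. Fold changes on this scale understate the change of low genes. edgeR 4.0.16 and DESeq2 1.42.0 were run on the summed recovered UMIs as alternatives. Shares were compared with exact permutation or sign-flip tests, two-sided. Libraries were joined as 1 rat by the number in their titles, and the pairing rests on both coming from 1 animal. The paired deviations correlated at −0.19 to 0.51 over 8355 genes in the IVD class. Over all cells they correlated at −0.63 to 0.64 over 9001 genes. Scripts were tested on simulated data. The complement genes and lists were chosen with earlier results of these data known. All 8 genes are named everywhere; of the wider list, those past the threshold and the 8 with the highest mean CPM over all cells; and the 3 nearest genes by Pearson's r. The values of 1 gene of the wider list are not reported here, though it is counted in the list. There were 0 columns of other samples.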

Additional observations from a re-analysis of the deposited data

Results flagged for a closer look

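Of 81 groups of 4 libraries checked, 4 held a value whose gap to its nearest neighbour, as a part of the group's range, passed Dixon's critical value, a flag that chance gives to about 1 group in 20. C1r in OAF cells was 287 CPM in the LDP library of rat 3, below 387 to 405 CPM in the other LDP libraries of 2 weeks. C3 over all cells was 6.37 CPM in the CON library of rat 5, above 0.618 to 1.34 CPM in the other CON libraries of 8 weeks. C3 in the myeloid class was 39.1 CPM in the CON library of rat 1, above 0 to 4.43 CPM in the others of its group. Cfd in the myeloid class was 724 CPM in the CON library of rat 4, above 22.5 to 142 CPM in the others.

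In cells without a class name, which were part of the values over all cells but were not compared as a class, C3 was 77.9 CPM in the LDP library of rat 5 and 151 CPM in that of rat 7, above the 0 to 43.1 CPM of the CON libraries of 8 weeks, while the LDP libraries of rats 6 and 8, at 3.80 and 0 CPM, lay within that range. These cells were not alike in the 2 groups. At 8 weeks their endothelial genes summed to 1879 to 4374 CPM in CON and 24.2 to 402 CPM in LDP libraries. Their neutrophil genes summed to 625 to 30085 CPM in CON and 3931 to 161565 CPM in LDP libraries.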

How the results depend on the processing

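Results are log2 differences (LDP minus CON unless said) or counts of genes called. With the replicate block taken out, which leaves the rats unpaired, 910 genes were called for both times and 35 for 8 weeks in the IVD class, 126 in OAF and 12 in 8-week myeloid cells; 10 in the IVD class at 2 weeks, 3 for its change of effect with time, 3 and 47 over all cells at 8 weeks and in the mean, and 5 in IAF cells. Cd55 then missed the threshold (adjusted p = 0.055, limma), myeloid Cfd at 8 weeks was 0.59, and sign flips within rats left 2 share tests past the threshold. DESeq2 called 142, 209 and 1066 genes over all cells (2 weeks, 8 weeks, mean), and 285, 566, 1812 and, for the change with time, 13 in the IVD class. edgeR called 2 over all cells at 8 weeks and 135 in the mean, 1 in NP and 33 in endothelial cells. Pooled CPM gave 1, 4 and 215 over all cells and the same highest class in 31 of the class levels. Pseudocount 5 gave 45 over all cells in the mean, 13 in IAF and 76 in 8-week myeloid cells, and no filter gave 2 in the latter. Shares without thinning left 1 test. Without rats 3 and 4, chosen after the data were seen, 0 were called over all cells at 8 weeks and 0 in the mean, and 5, 167, 82 and 12 in the IVD class (2 weeks, 8 weeks, mean, change).

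Between limma and edgeR, which differ in summing, model and scaling at once, higher and lower calls moved from 30 and 55 to 76 and 59 (all cells, mean), from 13 and 17 to 19 and 10 (IVD class, 8 weeks), from 121 and 358 to 155 and 279 (LDP, 8 against 2 weeks) and from 0 and 13 to 6 and 12 (8-week myeloid cells).

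Without rats 3 and 4 the sign turned over all cells at 2 weeks for C1qa (−1.09), C1qb (−0.86), C1qc (−1.34), C3 (−0.41) and Cfd (−0.75), in the mean for C1qa (−0.69), C1qb (−0.52), C1qc (−0.71) and Cfd (−0.42), for the change with time for C1qa (0.81), C1qb (0.68), C1qc (1.26), C1s (0.039), Cfd (0.67) and Serping1 (−0.024), and in the IVD class for C3 at 2 weeks (−0.15) and the change of C1s (0.13). Serping1 turned over all cells at 8 weeks (pooled 0.0061, DESeq2 0.12, edgeR 0.11) and in the mean (DESeq2 0.055, edgeR 0.046). In the IVD class it turned at 2 weeks (DESeq2 0.079, edgeR 0.067), at 8 weeks (pseudocount 0.0014, pooled 0.030, DESeq2 0.19, edgeR 0.17) and in the mean (pooled 0.0087, DESeq2 0.13, edgeR 0.12). It also turned in IAF cells (edgeR 0.22), in myeloid cells at 2 weeks (pseudocount −0.045, edgeR −0.025) and as a share at 2 weeks (3.90 points unthinned, 0.384 at 2000 UMIs). Myeloid C1r at 2 weeks turned to −0.19 (pseudocount) and −0.78 (edgeR). The cause of these changes was not tested, and none of these values was called.

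Leaving out each rat gave counts over all cells of 0 to 1 at 2 weeks, 0 to 1 at 8 weeks and 1 to 22 in the mean; in the IVD class 0 to 7, 1 to 568, 162 to 772 in the mean and 0 to 13 for the change; 0 to 30 in IAF, 33 to 172 in OAF and 0 to 11 in endothelial cells; 0 to 14 and 1 to 80 in myeloid cells; 1102 to 2455 and 138 to 1448 between times in CON and LDP; and 2 to 4 share tests. Signs turned over all cells at 2 weeks for C1qa (−0.049 to 1.30), C1qb (−0.029 to 1.37) and C1qc (−0.17 to 1.49), at 8 weeks for C1qb (−0.55 to 0.12), C1qc (−0.31 to 0.057), Cfd (−0.27 to 0.055) and Serping1 (−0.15 to 0.14), for the change for C1qc (−1.57 to 0.093), C1r (−0.27 to 0.067), C1s (−0.30 to 0.27) and C3 (−0.13 to 0.82), and in the mean for C1qa (−0.17 to 0.51), C1qb (−0.10 to 0.60), C1qc (−0.12 to 0.71) and Cfd (−0.034 to 0.80). They turned in the IVD class for C3 at 2 weeks (−0.057 to 0.21), Serping1 at 8 weeks (−0.15 to 0.23) and in the mean (−0.098 to 0.091), and the change of C1s (−0.42 to 0.22) and Serping1 (−0.099 to 0.28), for C1s in NP (−0.073 to 0.19), for Serping1 in IAF (−0.24 to 0.057) and endothelial cells (−0.26 to 0.31), in LDP between times (−0.66 to 0.074) and as a share (−0.399 to 0.194 at 2 weeks, −0.0354 to 0.635 at both), and in myeloid cells for C1r (−0.72 to 0.82) and Serping1 (−1.22 to 1.30) at 2 weeks and C1qa (−0.45 to 0.59), C1qc (−0.16 to 0.54), Cfd (−1.05 to 0.39) and Serping1 (−0.83 to 1.49) at 8 weeks.

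The C1r and C1s calls in the IVD class are thus held by DESeq2, the pseudocount, pooled CPM, the filter and the unpaired fit, and lost by edgeR, by leaving out any rat but rat 4, and without rats 3 and 4 (adjusted p = 0.050 and 0.064, limma). Myeloid values rest on 25 to 369 cells a library.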
